A study of Rattus norvegicus with 4 samples.

Results

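The 10 genes described here encode subunits of the NMDA and AMPA classes of ionotropic glutamate receptor: Grin1, Grin2a, Grin2b, Grin2c, Grin2d and Grin3a, and Gria1, Gria2, Gria3 and Gria4. They were found by gene symbol, 1 row each, among the 16375 rows listed for all 4 RNA-seq libraries of the newborn rat hippocampus. The pups were Wistar rats on postnatal day 1. Their dams were given bisphenol A (BPA), a monomer of polycarbonate plastic, at 5000 µg/kg body weight every day, starting on gestation day 1 and ending at birth. The dams of the control pups were given the vehicle alone over the same days. There was 1 library for each of control males, BPA males, control females and BPA females, and the series record describes pools of 3 hippocampi, so that no group has a replicate library and differences between litters are not measured. The values are FPKM, fragment counts scaled to the length of the gene model and to sequencing depth, as the authors deposited them.

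NMDA receptors are tetramers that need the GluN1 subunit (Grin1) together with GluN2 or GluN3 subunits. Those of GluN1 and GluN2 open when glutamate and a co-agonist are bound and depolarization lifts the magnesium block, and they let calcium in. AMPA receptors are tetramers of GluA1 to GluA4 (Gria1 to Gria4) that carry most fast excitatory transmission, and edited GluA2 makes them nearly impermeable to calcium. In the rodent forebrain GluN2B is the main GluN2 subunit around birth and GluN2A increases with age, GluN2C is best known from cerebellar granule cells, GluN2D from early development and interneurons, and GluN3A from the immature brain.

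The libraries hold about 8660000 to 8920000 fragments each, estimated from the steps between low values. The hippocampal neuron markers were all present, with 0 of 13 under 1 FPKM and a summed level of 632 to 701 FPKM. Markers of tissue next to the hippocampus differed widely between the libraries. The 7 choroid plexus markers summed to 266 FPKM for control males, 706 for BPA males, 8.16 for control females and 45.7 for BPA females, and the 8 markers of meninges and vessels summed to 383 FPKM for control females against 124 to 145 in the other libraries. In a bulk library, fewer cells of a type and less RNA per cell cannot be told apart.

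The promoters printed are those of Grin3a, with the largest treatment difference described further on, and of Grin1 and Grin2d, lower in females. None of these differences reached an adjusted p under 0.05. The promoters are taken from RefSeq on the assembly GRCr8, which is newer than the rn6 build named in the submitters' processing notes. Of the 10 genes, 5 matched an entry. Gria4, which was higher in females, also matched an entry and is not printed. Each window runs 5′ to 3′ from 250 bases before the annotated start to 50 bases after it, and capitals mark a GC box (GGGCGG or CCGCCC) or an estrogen response core (GGTCA or TGACC), searched on both strands.
Grin3a, chr5:69001509-69001808, minus strand: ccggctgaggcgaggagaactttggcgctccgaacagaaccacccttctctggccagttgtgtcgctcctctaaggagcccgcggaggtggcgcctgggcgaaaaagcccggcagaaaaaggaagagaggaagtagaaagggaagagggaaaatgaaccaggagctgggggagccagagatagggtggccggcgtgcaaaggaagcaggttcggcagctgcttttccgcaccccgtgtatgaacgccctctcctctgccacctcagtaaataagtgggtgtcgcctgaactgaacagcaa
Grin1, chr3:28528705-28529004, minus strand: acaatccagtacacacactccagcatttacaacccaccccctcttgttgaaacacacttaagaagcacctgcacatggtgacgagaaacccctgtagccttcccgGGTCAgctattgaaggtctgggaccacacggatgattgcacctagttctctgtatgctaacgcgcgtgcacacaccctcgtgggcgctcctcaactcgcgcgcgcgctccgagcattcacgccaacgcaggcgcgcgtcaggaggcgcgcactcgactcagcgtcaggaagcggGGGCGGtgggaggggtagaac
Grin2d, chr1:105481187-105481486, minus strand: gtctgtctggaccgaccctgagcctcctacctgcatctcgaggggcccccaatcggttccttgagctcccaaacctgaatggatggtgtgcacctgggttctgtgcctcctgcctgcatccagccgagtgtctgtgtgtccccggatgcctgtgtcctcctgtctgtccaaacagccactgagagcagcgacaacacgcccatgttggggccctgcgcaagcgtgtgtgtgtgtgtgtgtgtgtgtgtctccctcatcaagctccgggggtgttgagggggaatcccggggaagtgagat
The Grin1 window holds 1 GC box and 1 estrogen response core, and the windows of Grin3a and Grin2d hold neither. Of the 33469 promoters in the table, 33.1% hold a GC box and 40.5% hold the core, so that a single match is common. The full element GGTCANNNTGACC was in 0.0269% of all promoters and in none of these windows. The 3 windows have similar base composition, with 58.7%, 59.7% and 60.7% G and C for Grin3a, Grin1 and Grin2d.

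Grin1 (gene ID 24408), the subunit that every NMDA receptor needs, was the most abundant NMDA subunit gene. It was at 54.1 FPKM for control males, 52.1 for BPA males, 44.99 for control females and 43.9 for BPA females. The male libraries were the higher ones and the treatments overlapped. Its median lay above 85.0% of the 10857 rows with a gene ID and a mean of at least 1 FPKM.

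Of the GluN2 genes, Grin2b (gene ID 24410) was the most abundant, at 20.0 FPKM for control males, 21.7 for BPA males, 25.2 for control females and 20.4 for BPA females. The control female library was above the other 3, which lay close together. Grin2d (gene ID 24412) was at 10.8 FPKM for control males, 9.59 for BPA males, 6.46 for control females and 6.26 for BPA females, so that both male libraries were above both female libraries. Grin2a (gene ID 24409), the GluN2 gene of later ages, was at 3.94 FPKM for control males, 3.77 for BPA males, 4.39 for control females and 3.21 for BPA females. It exceeded only 17.6% of the rows with a gene ID.

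Grin2c (gene ID 24411) was barely detected, at 0.42 FPKM for control males, 0.29 for BPA males, 0.29 for control females and 0.34 for BPA females. These values stand for about 16, 11, 11 and 13 fragments. The exact Poisson 95% intervals ran from 0.239 to 0.678 FPKM for control males, from 0.143 to 0.512 for BPA males, from 0.147 to 0.525 for control females and from 0.183 to 0.587 for BPA females, which overlap, so that no difference was detectable at this depth. Intervals of this kind cover counting error only. With a mean under 1 FPKM it was the 1 member that did not pass the filter on low values.

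Grin3a (gene ID 191573), whose GluN3A subunit lowers calcium entry through NMDA receptors, was at 20.5 FPKM for control males, 14.98 for BPA males, 18.3 for control females and 13.3 for BPA females. Both BPA libraries were below both control libraries. A new gene model of 2159 bases, BGI_novel_G002519, has the GluN3A protein as its best match and was at 4.84, 3.99, 2.86 and 2.28 FPKM for control males, BPA males, control females and BPA females. Summed with it, Grin3a came to 25.3, 19.0, 21.2 and 15.6 FPKM in that order, with the BPA libraries again below the control libraries. No other member had such a model.

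Gria1 (gene ID 50592), which encodes GluA1, a subunit important for synaptic plasticity, had the highest level of all members, at 97.8 FPKM for control males, 94.4 for BPA males, 102 for control females and 90.4 for BPA females. Both BPA libraries were the lower ones, within a narrow range. Gria2 (gene ID 29627), which encodes the subunit that sets calcium permeability, was at 50.3 FPKM for control males, 53.3 for BPA males, 68.8 for control females and 51.9 for BPA females. As for Grin2b, control females stood above 3 libraries that differed little.

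Gria3 (gene ID 29628) was at 13.0 FPKM for control males, 16.5 for BPA males, 18.4 for control females and 16.2 for BPA females. The library of control males was lowest and that of control females highest, with the BPA libraries between them. Gria4 (gene ID 29629), the AMPA subunit gene best known from interneurons and the immature brain, was at 19.6 FPKM for control males, 20.7 for BPA males, 24.8 for control females and 23.8 for BPA females. Both female libraries were above both male libraries.

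**Figure D1:**
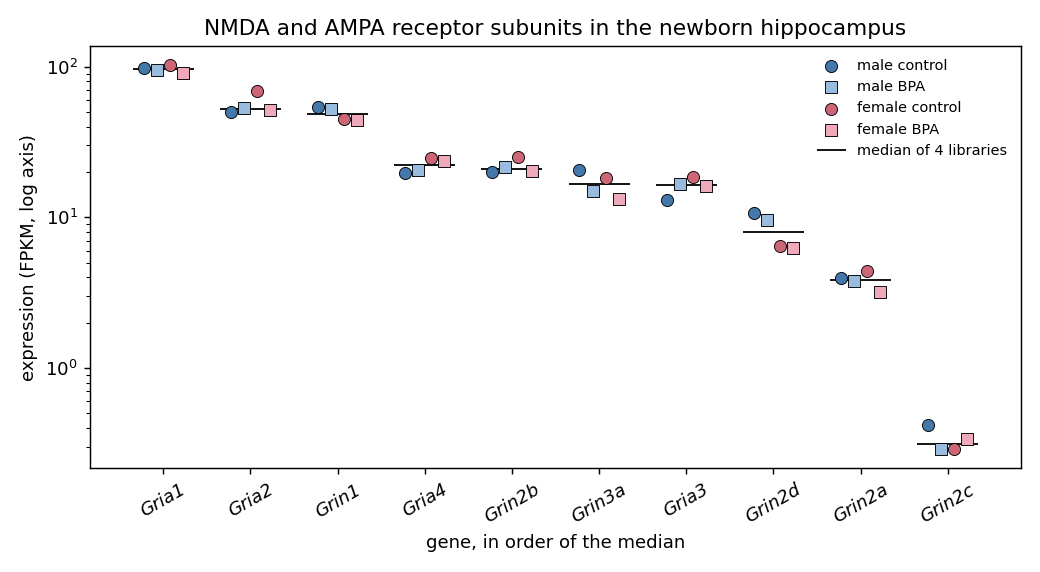
Expression of the 10 subunit genes in the 4 libraries, in FPKM on a log axis, with genes in order of their median (horizontal line) and 1 point per library. Gria1 is highest with a median of 96.1 FPKM, Grin2a and Grin2c are lowest, and the female points lie below the male points for Grin1 and Grin2d.

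By the median of the 4 libraries the order on the FPKM scale was Gria1 (96.1), Gria2 (52.6), Grin1 (48.6), Gria4 (22.3), Grin2b (21.0), Grin3a (16.6), Gria3 (16.4), Grin2d (8.02), Grin2a (3.86) and Grin2c (0.315). Of the 9 pairs of neighbours in this order, 5 did not overlap over the 4 libraries. These were the steps from Gria1 to Gria2, from Grin1 to Gria4, from Gria3 to Grin2d, from Grin2d to Grin2a and from Grin2a to Grin2c, each with the first gene higher in 4 of 4 libraries. Gria2 and Grin1 overlapped, as did the pairs Gria4 and Grin2b, Grin2b and Grin3a, and Grin3a and Gria3. The order within these pairs is not set by these data. Gria4 (19.55 to 24.85 FPKM) and Grin2b (20.0 to 25.17 FPKM) both lay wholly above Gria3 (13.03 to 18.44 FPKM). Levels between genes also rest on the listed length, which ranges from 3344 bases for Gria4 to 24121 bases for Grin2b. The spread over the libraries was narrowest for Gria1, with a coefficient of variation of 5.24%, and among the members that passed the filter it was widest for Grin2d (27.2%) and Grin3a (19.4%).

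Grin2b made up most of the GluN2 expression in every library. Its share of the summed FPKM of Grin2a to Grin2d was 57.0% for control males, 61.3% for BPA males, 69.3% for control females and 67.5% for BPA females. Grin2d had 30.6%, 27.2%, 17.8% and 20.7% in that order, and Grin2a had 10.6% to 12.1%. The Grin2b share differed between BPA and control by 1.29 percentage points (exact permutation test, two-sided, p = 1), and leaving out 1 library moved this difference from -4.89 without control males to 7.47 without control females. The share was higher in both female libraries than in both male libraries, by 9.27 percentage points, and the Grin2d share was lower by the same pattern, with p = 0.333 in the exact permutation test, the smallest p that 2 libraries against 2 allow.

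Among the AMPA subunits, Gria1 had 54.1% of the summed FPKM for control males, 51.0% for BPA males, 47.7% for control females and 49.6% for BPA females. Gria2 had 27.8%, 28.8%, 32.1% and 28.5% in that order. The Gria2 share was -1.32 percentage points different in BPA (exact permutation p = 1), and without the control female library the difference was 0.813 percentage points. Summed AMPA expression was 1.65 times summed NMDA expression for control males, 1.81 times for BPA males, 2.15 times for control females and 2.09 times for BPA females. This ratio was likewise higher in both female libraries (exact permutation p = 0.333) and overlapped between the treatments (p = 1 in the same exact test), where the difference of 0.0463 took values from -0.206 without control males to 0.299 without control females.

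**Figure D2:**
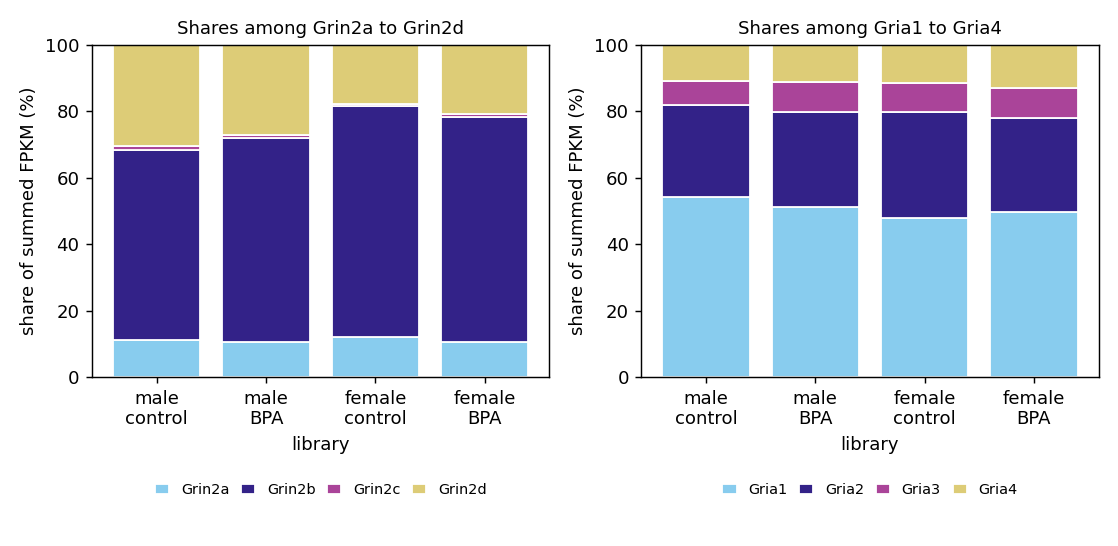
Shares (%) of each gene in the summed FPKM of Grin2a to Grin2d (left) and of Gria1 to Gria4 (right), 1 bar per library. Grin2b takes 57.0% to 69.3% of the GluN2 sum, and Grin2d takes a larger part of it in the male bars.

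The question of the series is whether BPA given to the dam changes hippocampal expression in the offspring. Grin3a had the largest difference of the 9 members tested. It was lower in BPA by nearly the same amount in both sexes, -0.43 in males (95% counting interval -0.58 to -0.28) and -0.43 in females (-0.59 to -0.28), as differences of log2(FPKM + 1). With both sexes together, 2 BPA against 2 control libraries, the difference was -0.43 (SE 0.13). It did not pass the Benjamini-Hochberg adjustment in limma over 13542 rows (adjusted p = 0.973, unadjusted p = 0.0127).

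No member passed an adjusted p under 0.05 in limma, against 0% of all 13542 rows. At an unadjusted p under 0.05 limma gave 1 of 9 members, Grin3a, against 4.7% of all rows, and with sex as a covariate the adjusted p of Grin3a was 0.356. The other 8 members had differences in the combined comparison from -0.20 (SE 0.18) for Grin2a to 0.07 (SE 0.17) for Gria3. Grin3a, Grin2a and Gria1 were the 3 members with both BPA libraries below both control libraries, a pattern that 19.9% of all rows show. When each library was left out in turn, the difference of Grin3a stayed between -0.51 and -0.35, while that of Grin1, Grin2b, Grin2d, Gria2, Gria3 and Gria4 took both signs.

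In males, 5 of the 9 members were lower and 4 were higher in BPA, with a median difference of -0.05, and the median of all rows was -0.002. Gria3 was the 1 member of 9 at or above 0.25 (0.32, counting interval 0.17 to 0.47), against 11.9% of all rows, and Grin3a the 1 at or below -0.25, against 12.6%. Grin2b (0.11, interval 0.05 to 0.17) and Gria2 (0.08, interval 0.02 to 0.14) were slightly higher for BPA males. The intervals of Grin1, Grin2a, Grin2d, Gria1 and Gria4 included 0.

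In females all 9 members were lower in BPA, from -0.03 for Grin1 to -0.43 for Grin3a, with a median of -0.18 against -0.04 for all rows. For Grin2d the difference was -0.04 and took the other sign after quantile normalization (0.05). There were 4 of 9 members at or below -0.25, against 21.2% of all rows. They were Gria2 (-0.40, interval -0.46 to -0.34), Grin2a (-0.36, interval -0.49 to -0.23) and Grin2b (-0.29, interval -0.35 to -0.24) beside Grin3a. After quantile normalization the count was 3, with Grin2a at -0.23 and no longer among them. Grin3a was the 1 member at or below -0.25 in both sexes, where 4.76% of all rows were. No member was past an absolute log2 difference of 1 in either sex, where 1.7% of all rows were in males and 2.17% in females. Each of these comparisons sets 1 library against 1, so no test was made within a sex.

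**Figure D3:**
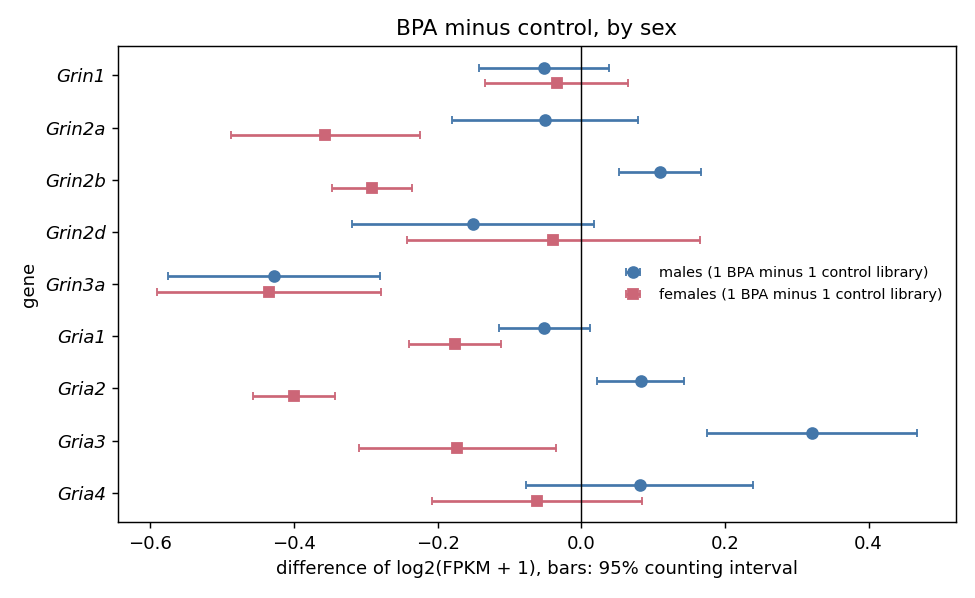
Difference of log2(FPKM + 1) between the BPA and the control library of each sex for the 9 members with a mean of at least 1 FPKM, with 95% counting intervals that do not include differences between animals. Grin3a lies at -0.43 in both sexes, and the points of Gria2, Gria3 and Grin2b lie on opposite sides of 0.

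The lower values of Gria2 and Grin2b in the female comparison go with the control female library, which is also the library with the highest level of meninges markers. Differences also went with the length of the gene model. In the rows with a gene ID of at least 4760 bases the median difference was -0.09 between BPA and control in females, 0.04 between BPA and control in males and 0.08 for control females minus control males. In rows of up to 1386 bases these medians were 0.006, -0.04 and -0.03, so that the male and female comparisons went opposite ways with length. Gria2 is listed with 9313 bases, Grin2b with 24121, Grin2a with 17721 and Gria3 with 5076. The part of tissue composition and of model length in the differences of the members was not tested. Grin3a, with 4338 bases, was lower in BPA in males too. There the meninges list summed to 145 FPKM in control and 143 in BPA, but its members were uneven, with Col1a1 at -0.65 and Lum at -0.55 and Ptgds at 0.46, so that the sum does not set Grin3a apart from these markers. Col1a1 and Lum were the 2 of 8 at or below -0.25 in both sexes, where 4.76% of all rows were. These markers are named after their values were seen. In the male comparison the choroid plexus markers were at 266 FPKM in control and 706 in BPA, and their part was not tested either.

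The sexes were compared across both treatments, 2 female against 2 male libraries. Grin2d was lower in females by a log2 difference of -0.60 (SE 0.14), the largest of the members, and was lower within the controls (-0.66, counting interval -0.84 to -0.47) and within BPA (-0.54, interval -0.73 to -0.36). Grin1 was lower in females as well (-0.25, SE 0.08), by -0.26 in the controls and -0.24 in BPA. Gria4 was higher in females (0.26, SE 0.09), by 0.33 in the controls and 0.19 in BPA.

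None of these passed the adjustment in limma, with adjusted p = 0.256 for Grin2d, 0.359 for Grin1 and 0.413 for Gria4, and 0.00738% of all rows were called, which is 1 row. At an unadjusted p under 0.05 limma gave 3 of 9 members, these same genes, against 10.6% of all rows. They were also the 3 of 9 members whose female and male libraries did not overlap, where 42.3% of all rows did not. For Gria2 and Gria3 the female minus male difference was 0.45 and 0.47 between the control libraries and -0.04 and -0.02 between the BPA libraries, and whether it depends on treatment was not tested. The Gria3 value in BPA was 0.01 after quantile normalization.

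**Figure D4:**
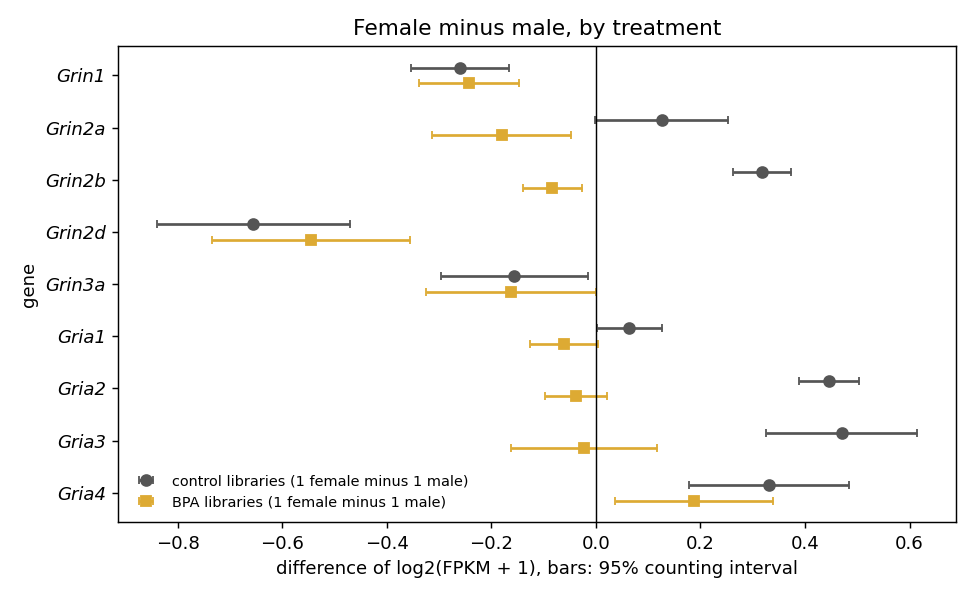
Difference of log2(FPKM + 1) between the female and the male library within each treatment for the same 9 genes, with 95% counting intervals. Grin2d and Grin1 lie below 0 and Gria4 above 0 in both treatments, while Gria2, Gria3 and Grin2b lie well above 0 for the control libraries alone.

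Beside the sex difference of Grin2d stands that of several interneuron markers. Of the 10 markers on that list 3 were lower in females at an unadjusted p under 0.05 in limma, where 10.6% of all rows differed in either direction, and none passed the adjustment. They were Slc32a1 (-0.57), Dlx2 (-0.74) and Sst (-0.34), named after their values were seen. Slc32a1, the vesicular GABA transporter, was at 31.4 and 28.02 FPKM for control males and BPA males and at 20.2 and 19.0 FPKM for control females and BPA females. Gad1 and Lhx6, of the same list, overlapped between the sexes, and the summed list was at 372 and 392 FPKM in males and 344 and 318 in females. Choroid plexus markers were much higher in the male libraries, as given before, and the part of either in the Grin2d value was not tested.

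Genes were then ranked by the likeness of their pattern, as the root mean square difference of centred log2(FPKM + 1) over the 4 libraries among 10857 rows with a gene ID. For Grin2d, which had the widest range of the members tested, the nearest was Slc32a1 (0.019), followed by Ssbp4 (0.028) and Lsm11 (0.035), a component of the histone pre-mRNA processing complex. For Grin2b the nearest were Nsun4 (0.011), a mitochondrial RNA methyltransferase, Jrkl (0.013) and Retsat (0.014), the retinol saturase. With 4 values for each gene and 10857 rows searched, close matches can arise without a link. A link between these genes and Grin2d or Grin2b was not tested.

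A list of 8 other ionotropic glutamate receptor genes, most of them kainate receptor subunits, was followed too. All 8 were measured and none passed the adjustment in limma for BPA, or an unadjusted p under 0.05. Grik5, a high-affinity kainate subunit, was the most abundant at 78.4 FPKM for control males, 69.4 for BPA males, 55.2 for control females and 57.9 for BPA females. Grik2 followed with 19.2 to 23.3 FPKM. Past a log2 difference of 0.25 there was 1 gene of 8 in males, Grik2 (0.26), against 11.9% of all rows, and past -0.25 there was 1 of 8 in females, Grik4 (-0.51), against 21.2%. Grik4 is named after its values were seen. By the smaller of the values in the 2 sexes, the largest difference downward was that of Grid1, with -0.07 in males and -0.09 in females. Grik5 resembled Grin1 and Grin2d in that both female libraries were below both male libraries (-0.38, SE 0.09, adjusted p = 0.266 in limma).

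AMPA receptors are held at the membrane by auxiliary subunits and partners, and 18 of the 21 genes on that list were measured. Cnih2, a cornichon that slows AMPA receptor closing, was by far the most abundant at 472 FPKM for control males, 410 for BPA males, 309 for control females and 341 for BPA females. Olfm1, a secreted partner, came next with 198 to 256 FPKM. Cacng8, which encodes the TARP gamma-8 of hippocampal AMPA receptors, was lower in BPA in both sexes, at 43.0 and 34.1 FPKM for control males and BPA males and at 29.8 and 22.6 FPKM for control females and BPA females (-0.35, SE 0.23, adjusted p = 0.973 in limma). Abhd6, an AMPA receptor regulator, had the largest difference upward by the smaller of the values in the 2 sexes (0.29 in males and 0.24 in females). None of the 18 passed the adjustment and 1, Cpt1c, was under an unadjusted p of 0.05, against 4.7% of all rows (-0.39, SE 0.16, adjusted p = 0.973 in limma). In males 5 of them (Cacng2, Cacng5, Cnih3, Olfm3 and Abhd6) were at or above 0.25, where 11.9% of all rows were, and 2 (Cacng3 and Cacng8) at or below -0.25, where 12.6% were. In females the counts were 0 (10.9% of all rows) and 4 (Cacng2, Cacng5, Cacng8 and Cpt1c, against 21.2%), and the list medians were -0.11 for males and -0.04 for females. Cacng2, which encodes the TARP stargazin, was 0.27 in males and -0.47 in females, and these list members outside the naming rule were chosen after their values were seen.

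Of the 30 trafficking and scaffold genes 28 were tested and none passed the adjustment or an unadjusted p under 0.05 for BPA. Camk2b (166 to 191 FPKM), a subunit of the kinase that phosphorylates AMPA receptors, and Nptxr (139 to 168 FPKM), a neuronal pentraxin receptor that clusters them, were the most abundant. Camk2a, the other major subunit of this kinase, was -0.20 in males (132 FPKM without and 115 with BPA) and -0.20 in females (123 and 106 FPKM). Lrrtm1, a postsynaptic adhesion protein, was higher in BPA by 0.24 in males and 0.40 in females. Nsf (-0.26) and Lin7b (-0.46) were the 2 of 28 at or below -0.25 in males, against 12.6% of all rows, and 0 were at or above 0.25, against 11.9%. In females Lin7b (0.33) and Lrrtm1 were the 2 of 28 at or above 0.25, against 10.9% of all rows, and 0 were at or below -0.25, against 21.2%. Nsf and Lin7b are named after their values were seen.

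Editing of GluA2 RNA and supply of the co-agonist D-serine were followed with 8 genes, of which 7 were tested and none passed. Srr, the serine racemase, was at 27.6 to 30.04 FPKM and the transporter gene Slc1a4 at 22.4 to 27.4 FPKM. By the same measure the largest difference downward was that of Adarb2 (-0.17 in males and -0.53 in females), an editing enzyme relative without known activity of its own, and the largest upward was Slc7a10 (0.14 and 0.003). Adarb1, the enzyme that edits GluA2 RNA, is added after its values were seen, at 14.3 FPKM for control males, 13.1 for BPA males, 12.4 for control females and 12.3 for BPA females. Editing itself cannot be read from these values.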

How the data were processed

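RNA was sequenced from pooled hippocampi of 4 groups of pups, 1 library each. The authors deposited FPKM values to 2 decimals, with 0.01 as the lowest value, and the gene model length in bases. The submitters' processing notes name HISAT 0.1.6, Bowtie2 2.2.5, RSEM and the build rn6, without the role of each. RSEM divides fragments among models that share sequence, so that a gene with several models can be split.

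Libraries were joined on row names. Differences are of log2(FPKM + 1), a scale that shrinks differences of weakly expressed genes. The 13542 rows whose mean reached 1 FPKM were kept. BPA was compared with control, and female with male, 2 libraries against 2, by the trended empirical Bayes fit of limma 3.58.1 (R version 4.3.3), without covariates, and Benjamini-Hochberg adjusted p under 0.05. P-values measure only the spread between these libraries. Shares were tested by exact permutation (scipy 1.17.1, Python 3.11.15). Depth was estimated from gene ID rows whose low values fall on whole fragments (95.9% to 98.5% lay within 0.15 of one, and 30% would if values fell evenly). Counting intervals are 95% and cover counting error only. The limma fit and the depth estimate were tested on simulated data.

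The members and the gene lists were chosen with earlier results of these data known. Named list genes are, for each list, the 2 with the highest level, the largest difference upward and downward in both sexes, and any past an absolute log2 difference of 1 or called by limma. Some results that these rules would name are not reported here. For likeness of pattern, 3 genes are named for Grin2b and for the member with the widest range. Grik5's sex difference, Cpt1c, Adarb1 and the sex tests of the shares were added after the values were seen. Marker lists covered hippocampal neurons, interneurons, choroid plexus, meninges and vessels, red blood cells, microglia, the oligodendrocyte lineage, astrocytes and radial glia, cycling cells, and thalamus or hypothalamus. Alternatives were a pseudocount of 0.1, dropping the filter or raising it to 5 FPKM, quantile normalization, sums with new gene models, sex or treatment as a covariate, limma without trend, an unadjusted p, fragment shares, and leaving out each library.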

Additional observations from a re-analysis of the deposited data

Results flagged for a closer look

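The BPA difference had opposite signs in the sexes for 3 members, with both counting intervals excluding 0. The change in females minus the change in males, on the log2(FPKM + 1) scale, was -0.40 for Grin2b, -0.48 for Gria2 and -0.49 for Gria3. The difference between the sexes was not tested, since 4 libraries in 4 groups leave no replicate. For Grin2b and Gria2 the control female library was the highest of the 4 and the other 3 lay within 20.0 to 21.7 FPKM and 50.3 to 53.3 FPKM. For Gria3 the control male library was the lowest, at 13.0 FPKM.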

How the results depend on the processing

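No member was called in either comparison under any alternative with an adjusted p. At an unadjusted p under 0.05 there was 1 for BPA and 3 for sex. Over all rows, limma called 0 for BPA, and 2 with sex as a covariate, 6 without trend, 3 without control females and 1 without BPA males. For sex it called 1, and 55 with treatment as a covariate, 21 at a mean of at least 5 FPKM and 2 without control females. The adjusted p of Grin3a for BPA ranged from 0.356 to 1 over its 11 alternatives, and that of Grin2d for sex from 0.122 to 0.956. Leaving out 1 library in turn, an alternative added after the data were seen, moved the BPA difference of the Gria2 share from -3.46 percentage points without control males to 0.813 without control females, against -1.32 with all 4. It also turned the sign of the Grin2b share difference (-4.89 to 7.47 percentage points, 1.29 with all 4) and of the AMPA to NMDA ratio difference (-0.206 to 0.299, 0.0463 with all 4), so that none of these 3 differences has a stable direction. The labels carry no replicate numbers, and the paired fit is the one with sex as a covariate, which compares BPA with control within each sex and called no member. With 1 library a group, the spread between litters is not known, and Grin2d rests on 284 to 494 estimated fragments a library.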

Other observations

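Glutamate is cleared by transporters of astrocytes. Slc1a2, the main glutamate transporter of the adult forebrain and a gene of the astrocyte list, was at 52.9 FPKM for control males, 38.8 for BPA males, 44.5 for control females and 34.6 for BPA females, with both BPA libraries below both control libraries. It is named here after its values were seen. The difference was -0.40 (SE 0.13, adjusted p = 0.973 and unadjusted p = 0.0172 in limma). Slc1a3, the glutamate transporter of radial glia, was -0.23 (SE 0.09, adjusted p = 0.973 in limma), at 158 and 138 FPKM in males and 168 and 140 FPKM in females. Of the 6 genes of that list 2 were lower in BPA at an unadjusted p under 0.05 in limma, where 4.7% of all rows differed in either direction, and none passed the adjustment.

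Slc17a7, the vesicular glutamate transporter of excitatory hippocampal neurons, was at 138 FPKM for control males, 114 for BPA males, 117 for control females and 108 for BPA females (-0.19, SE 0.11, adjusted p = 0.973 in limma). Both BPA libraries were below both control libraries, as for Grin3a.

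Of the remaining lists, the median differences in males and females were 0.26 and -0.12 for microglia (5 genes tested). For red blood cells they were -0.15 and 0.08 (2 tested), with Alas2 at -0.21 and Hbb at 0.37 in females. The medians were -0.15 and -0.11 for the oligodendrocyte lineage (7 tested) and -0.17 and -0.18 for cycling cells (6 tested). For thalamus or hypothalamus they were 0.02 and -0.22 (4 tested), where 5 of 8 markers were listed and summed to 10.8 to 14.3 FPKM.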
